A study of Mus musculus with 12 samples.

Results

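Inside the longest genes of hippocampal neurons, 14087 regions with acetylation of histone H4 at lysine 12 (H4K12ac) were found, among 144701 regions in the genome. A region is a stretch of merged, touching peaks that holds a peak in at least 2 of the 10 deposited peak lists. The 14087 regions lay wholly inside an autosomal protein-coding gene longer than 500 kb and more than 10 kb from the annotated 5′ end of that gene. Such genes numbered 218, of which 199 held at least 1 region, and their bodies beyond the first 10 kb covered 184 Mb. The compared classes were 42936 regions chosen alike in genes of 100 to 500 kb and 14869 autosomal intergenic regions more than 10 kb from any annotated gene.

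H4K12ac ChIP-Seq was performed on neuronal nuclei sorted from the hippocampus of 5 *Tip60* cKO and 5 control mice. *Tip60* cKO mice carried the *CaMKCreERT2* driver and *Tip60* f/f, and control mice were *Tip60* f/f littermates that lacked the driver. The driver deletes in excitatory forebrain neurons after their last division and spares glia, whereas the sort took neuronal nuclei of all kinds. All mice had received tamoxifen, so that the groups differ in the driver but not in the drug, and nuclei were collected at day 10 after the last injection. The labels give male C57BL/6J mice aged 3 months, while the methods of the study give another substrain and either sex. Each mouse gave 1 library and input chromatin was pooled to 1 library per genotype. The names of the deposited lists, not the sample labels, mark replicates 1 to 3 of both genotypes with lane 7 and replicates 4 and 5 with lane 8.

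Acetylation of the tail of histone H4 loosens the contact between histone and DNA and is found at active promoters, enhancers and transcribed genes. TIP60 (KAT5) is an acetyltransferase of a large chromatin remodelling complex, and histone H4 is among its substrates. Genes of extreme length are a feature of the neuronal genome and include many that code for adhesion molecules, synaptic scaffolds, ion channels and their regulators. Their introns are long enough to hold many enhancers and alternative promoters, and a polymerase needs hours to cross them.

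From 22864189 to 37923809 tags per library were used to call peaks, and the lists held 64245 to 136409 peaks, with *Tip60* cKO 5 the shallowest and shortest. Of the promoters of 10 neuronal marker genes 8 carried a peak in all 10 lists. The exceptions were *Gad1* and *Gad2* of inhibitory neurons, which had none. *Gfap* of astrocytes (1 of 5 astrocyte genes) and *Mbp* of oligodendrocytes (1 of 5) also had a promoter peak in all lists, while none of 5 microglial and none of 3 endothelial genes did. *P2ry12* of microglia had a peak in 5 lists (mean score 57.9 in control and 14.1 in *Tip60* cKO) and *Slc1a3* of astrocytes in 3 (27.8 and 9.76). *Sox10* of oligodendrocytes (23.02 and 17.4) and, in the reverse direction, *Gja1* of astrocytes (12.5 and 24.2) also had one in 3 lists. Their part in the results below was not tested, and the peak lists hold no direct measure of the deletion of *Tip60*.

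The following sequences show some of the regions named below, each as the central 300 bases on the plus strand of GRCm38, taken from RefSeq. The first and second are the strongest regions away from any transcript start. The next 3 were acetylated in all control mice but had no peak in any *Tip60* cKO mouse, and the last had the converse pattern. Capitals mark the E-box letters CAGATG on either strand, which were found in 27.3% of the windows in long genes and in 25.6% of those of all regions.
*Ptprn2* chr12:116579000-116579299: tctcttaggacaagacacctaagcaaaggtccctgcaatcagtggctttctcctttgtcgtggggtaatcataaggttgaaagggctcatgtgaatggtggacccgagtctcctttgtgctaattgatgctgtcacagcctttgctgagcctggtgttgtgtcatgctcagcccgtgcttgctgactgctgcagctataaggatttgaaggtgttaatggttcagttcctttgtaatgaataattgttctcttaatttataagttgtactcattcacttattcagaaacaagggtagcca
*Grm5* chr7:88130357-88130656: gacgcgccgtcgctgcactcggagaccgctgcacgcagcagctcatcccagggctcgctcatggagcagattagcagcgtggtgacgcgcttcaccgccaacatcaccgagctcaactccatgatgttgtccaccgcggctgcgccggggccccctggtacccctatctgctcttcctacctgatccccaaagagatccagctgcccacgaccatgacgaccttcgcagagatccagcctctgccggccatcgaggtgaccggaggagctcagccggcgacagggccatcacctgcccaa
*Fars2* chr13:36265158-36265457: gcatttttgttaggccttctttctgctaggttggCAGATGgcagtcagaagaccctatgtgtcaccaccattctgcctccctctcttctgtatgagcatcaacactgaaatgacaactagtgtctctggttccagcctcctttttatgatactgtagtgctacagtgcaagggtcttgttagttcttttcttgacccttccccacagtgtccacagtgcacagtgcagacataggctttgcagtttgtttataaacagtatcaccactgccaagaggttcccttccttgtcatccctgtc
*Cacna2d3* chr14:29025646-29025945: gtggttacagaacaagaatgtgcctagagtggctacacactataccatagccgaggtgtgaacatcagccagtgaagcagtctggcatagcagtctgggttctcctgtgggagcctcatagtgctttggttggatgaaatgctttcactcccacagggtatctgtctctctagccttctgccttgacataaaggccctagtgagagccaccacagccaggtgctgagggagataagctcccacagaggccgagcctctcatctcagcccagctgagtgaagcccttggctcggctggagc
*Zbtb20* chr16:43191351-43191650: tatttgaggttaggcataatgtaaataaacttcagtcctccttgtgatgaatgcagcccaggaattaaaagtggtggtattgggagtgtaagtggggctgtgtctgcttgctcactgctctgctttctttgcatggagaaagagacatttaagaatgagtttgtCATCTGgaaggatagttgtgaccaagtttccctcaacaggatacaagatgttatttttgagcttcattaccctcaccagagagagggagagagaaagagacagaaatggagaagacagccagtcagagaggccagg
*Dlgap1* chr17:70255354-70255653: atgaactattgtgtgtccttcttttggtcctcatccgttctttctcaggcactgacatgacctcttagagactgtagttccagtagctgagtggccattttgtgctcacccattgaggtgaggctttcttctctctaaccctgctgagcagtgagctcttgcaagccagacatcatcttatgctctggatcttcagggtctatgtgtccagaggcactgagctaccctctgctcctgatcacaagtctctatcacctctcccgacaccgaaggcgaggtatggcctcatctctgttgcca

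The *Ptprn2* window lies in an intron beside a coding exon that the region also covers, and the *Grm5* window lies in the coding part of the last exon and holds 25 CpG dinucleotides. The *Fars2*, *Cacna2d3*, *Zbtb20* and *Dlgap1* windows are intronic and hold 0, 3, 0 and 4 CpG. Over all regions in long genes the GC content of the window was 48.6% ± 5.38 (SD over regions), against 50.3% in genes of 100 to 500 kb, 49.6% in intergenic regions and 52.0% in all regions. A ratio of observed to expected CpG above 0.6, as CpG islands have, was found in 2.04% of the regions in long genes and in 9.05% of all regions. Near annotated internal transcript starts this share was 11.5%. The letters of the other motifs searched on both strands were about as frequent in long genes as elsewhere. AP-1 (TGAGTCA) was found in 5.81% against 5.64% of all windows, CRE (TGACGTCA) in 0.334% against 0.344%, and MEF2 (CTAAAAATA) in 0.419% against 0.451%.

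Regions in long genes were mostly short, within introns of their host and seen in few mice. Regions without an exon of their host numbered 13159, some of which cover exons of other genes, and 928 (6.59%) overlapped an exon of their host. The median length was 524 bp, against 549 bp in genes of 100 to 500 kb and 584 bp for all regions. A peak was present in just 2 lists for 4470 regions (31.7%) and in all 10 lists for 1121 (7.96%). In genes of 100 to 500 kb 10.1% of regions, and genome-wide 16.4%, had a peak in all 10 lists. Neighbouring regions were close to each other: the median gap was 1.42 kb, 72.1% of gaps were below 5 kb and 3.64% exceeded 50 kb, the largest being 891 kb. These gaps are pooled over genes of very different density, and clustering within a gene was not tested.

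The strongest region more than 2 kb from any transcript start was in *Ptprn2* (chr12:116576183-116582116), a gene for a receptor-type phosphatase of secretory vesicles. Its fold enrichment, the ratio of peak height to local background with 1 added to both, was 9.44, 11.8, 7.57, 9.86 and 11.7 in control and 7.51, 8.19, 9.76, 9.84 and 7.25 in *Tip60* cKO mice. The groups overlapped. Beside it stood a region over the last exon of *Grm5*, the metabotropic glutamate receptor mGluR5 (chr7:88129515-88131497), with 8.26, 6.68, 7.94, 8.93 and 8.54 in control and 6.45, 7.28, 9.20, 9.62 and 8.69 in *Tip60* cKO mice. A region over an exon of *Anks1b*, which encodes a postsynaptic protein (chr10:90967099-90970406), had 7.51 to 8.57 in control and 5.59 to 8.69 in *Tip60* cKO mice. All of them had a peak in every list, and in none did the genotypes separate. The other members of this top 5 and the longest region (19351 bp, chr8:120545558-120564908, fold enrichment 6.73 to 9.20) lay in *Gm20388*, and the latter spans a start of *Gse1*.

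*Gm20388* is a gene model of 4435 kb within which 72 other genes start. At least 5 other genes start within each of 5 further models (*Fgfr2*, *Gm37240*, *Gm42416*, *Gm37013* and *Gm37388*). These 6 models held 1541 regions, many of which belong to other genes, so 12546 regions lay in 212 long genes without them. Results per gene are given for these 212 genes unless stated.

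The number of regions differed widely between long genes. The median was 34.2 regions per Mb of gene body (quartiles 7.21 and 116), and 27 of 212 genes (12.7%) held 50% of the regions. Highest was *Kalrn*, an exchange factor for small GTPases in dendritic spines (chr16:33969073-34573532), with 328 regions or 552 per Mb. *St6galnac3*, a sialyltransferase, followed with 476 per Mb, *Slit3*, a secreted ligand of Robo receptors, with 468, and *Cacna1c*, the pore of an L-type calcium channel, with 432 per Mb. The highest numbers per gene were found in *Tenm2*, an adhesion molecule (348), *Dab1*, an adaptor of reelin signalling (335), *Kalrn* (328), and the splicing regulators *Rbfox1* (293) and *Celf2* (290). At the other end *Wwox*, an oxidoreductase gene at a fragile site, held 2 regions in 913 kb and *Cntnap2*, a neurexin relative at the axon, 14 in 2245 kb.

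Of the 218 long genes 19 had no region. Among them were *Erbb4*, the receptor of neuregulins, *Foxp2* and *Sox6*, transcription factors, *Grm8*, a presynaptic glutamate receptor, and *Dpp10*, a potassium channel subunit. *Galnt13*, *Mdga2*, *Naaladl2* and *Sgcz* also had none although a peak was present at their annotated 5′ end in all 10 lists. A gene without a region had no peak in the same place in a pair of lists, which does not show that its body lacked acetylation.

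**Figure D1:**
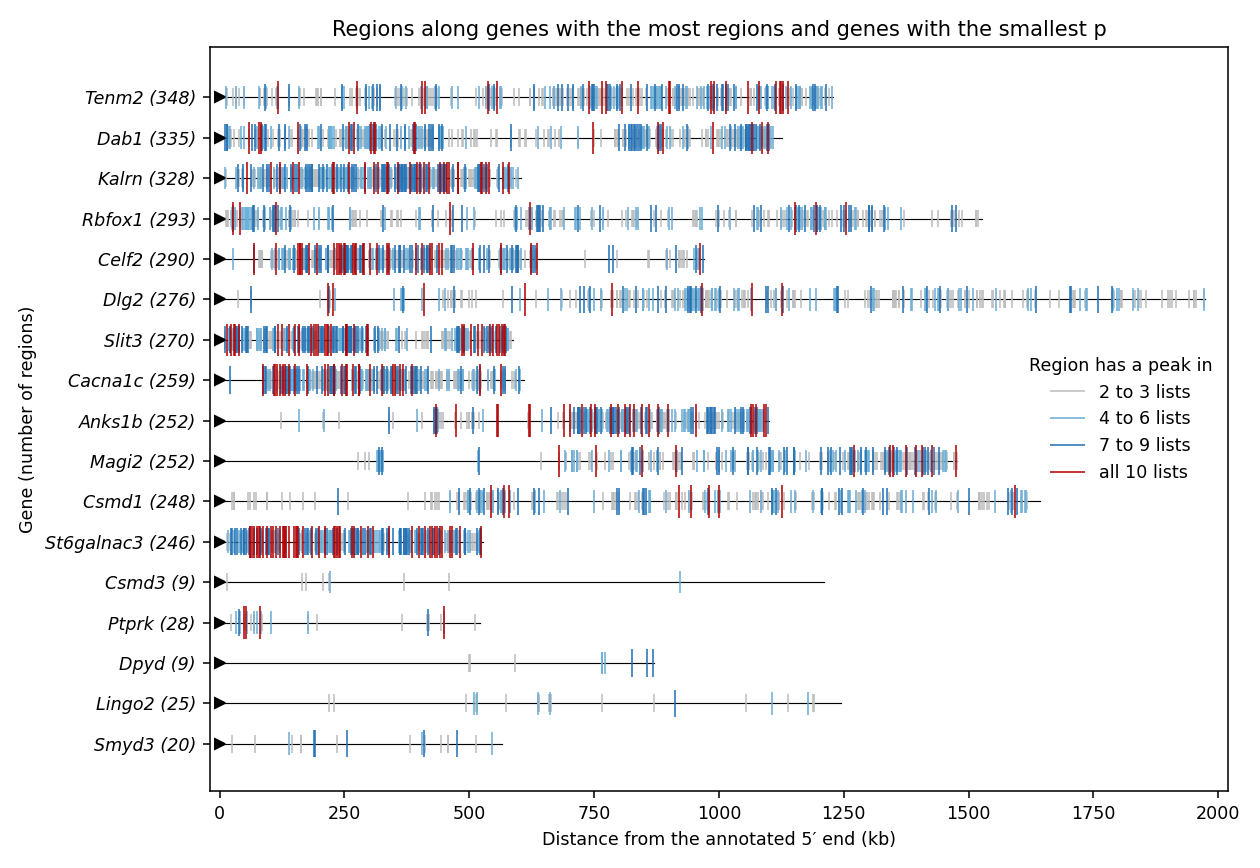
Regions along the 12 single long genes with the most regions and the 5 with the smallest p for a lower score in *Tip60* cKO, by distance from the annotated 5′ end in kb (arrowhead). Each tick is a region, coloured and lengthened by the number of lists with a peak; *St6galnac3* carries 50 regions with a peak in all 10 lists, and 88.5% of the regions of *Magi2* lie beyond its midpoint.

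Grouped by lists of host genes, the list of scaffold and other synaptic genes had the highest median, 141 regions per Mb over 15 genes with 2027 regions, with *Ank3* (ankyrin-G of the axon initial segment) at 370 per Mb. The postsynaptic scaffold genes *Dlgap1* (281 per Mb) and *Dlgap2* (272 per Mb) are not on that list. Ion channels and their subunits followed with a median of 99.7 per Mb over 12 genes. The 29 adhesion genes had a median of 55.6 per Mb and ranged from *Cntnap5c* (1.59) to *Tenm2* (285). The 7 glutamate and GABA receptor genes had a median of 54.1 per Mb, with *Grid1* highest (145) and *Grm8* at 0. For 15 nuclear regulators of transcription and splicing the median was 35.0, for 12 genes at common fragile sites 35.5, for 5 genes of cyclic nucleotide and lipid signalling 34.8, and for 21 receptor phosphatases, kinases and guidance genes 15.9 per Mb. The ranges of all 8 groups overlapped, and the lists were drawn up for this description, so that no test was made of their differences. The fragile site list shares *Dlg2* with the scaffold list and *Ctnna3* with the adhesion list.

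A peak at the annotated 5′ end went with a dense body. The 123 genes with such a peak in all 10 lists had a median of 64.7 regions per Mb, the 51 genes with a peak in 1 to 9 lists 8.30, and the 38 genes with none 7.77. Dense bodies without such a peak also occurred, among them *Cacna1c* (432 per Mb), *Kcnma1* (306 per Mb) and *Celf2* (302 per Mb). GC content also went with density across the 212 genes (Spearman correlation 0.433, Pearson's r with log2 density 0.432; genes are not independent replicates and share the same libraries). In the lowest, middle and highest GC class of about equal size the medians were 15.9, 28.6 and 111 regions per Mb. Within each class genes with a 5′ peak in all 10 lists were denser than the others, with 23.5 against 2.97, 64.7 against 8.05 and 149 against 35.2 per Mb. The part of GC content in peak calling was not tested.

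**Figure D2:**
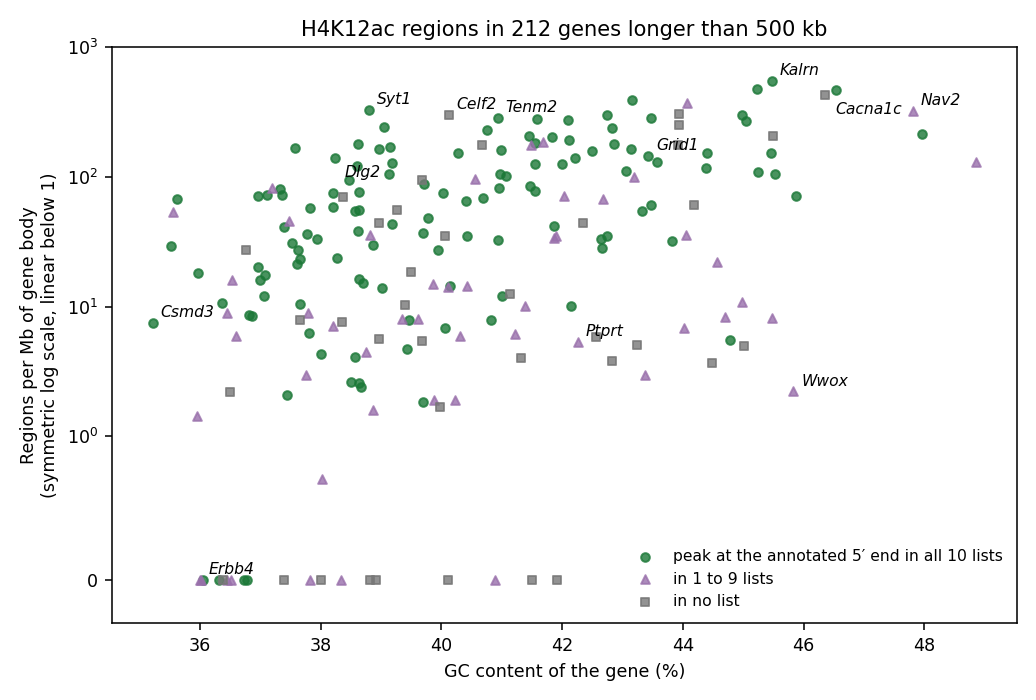
Regions per Mb of gene body (symmetric log axis, linear below 1) against the GC content of the gene in percent, for 212 genes longer than 500 kb. Each point is a gene, marked by the number of lists with a peak at its annotated 5′ end; genes with such a peak in all 10 lists have a median of 64.7 regions per Mb, those with none 7.77.

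The longest genes held the fewest regions per Mb. By gene length the median was 54.8 regions per Mb in 1419 genes of 100 to 200 kb, 69.3 in 412 genes of 200 to 300 kb, 50.3 in 323 genes of 300 to 500 kb, 37.6 in 160 genes of 500 to 1000 kb and 15.2 in 52 genes above 1000 kb. Mean GC content went from 43.4% in the first to 39.3% in the last of these classes. Among the 212 long genes alone length and density had a Spearman correlation of −0.0868. Counted as peaks per Mb of gene body in each mouse, long genes held 59.4, 61.6, 50.5, 37.6 and 67.7 in control and 65.2, 49.2, 55.5, 42.2 and 23.2 in *Tip60* cKO mice. Genes of 100 to 500 kb held 90.2, 95.1, 81.0, 60.8 and 100.3 in control and 100.1, 78.1, 84.7, 68.9 and 39.4 in *Tip60* cKO mice. The log2 ratio of the classes was −0.65 ± 0.06 (SD, n = 10) and below 0 in 10 of 10 mice, with an exact sign-flip p = 0.00195, the smallest that 10 mice allow. After Benjamini-Hochberg adjustment over the 7 comparisons made within mice p was 0.00273.

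Regions in long genes also had a slightly lower mean rank score than those in genes of 100 to 500 kb, and their peaks were shorter. Each region was given a rank score in each list, which is the percentile of its best peak among all regions when ordered by fold enrichment, or 0 without a peak. A region without a peak lowers the mean score. On average over 10 mice, 45.3% of regions in long genes had a peak, against 47.5% in genes of 100 to 500 kb. The mean score in long genes was lower by 1.93 ± 0.568 (SD, n = 10), in 10 of 10 mice (exact sign-flip p = 0.00195, adjusted 0.00273). The log2 ratio of peak lengths was −0.06 ± 0.01, with the same p in 10 of 10 mice. It was −0.14 without the 6 gene models that span other genes, and 0.02 in the opposite direction for hosts over 1000 kb (exact sign-flip p = 0.0137). Median fold enrichment differed little, by a log2 ratio of −0.02 ± 0.01, below 0 in 7 of 10 mice and 0 in 3 (exact sign-flip p = 0.0156, adjusted 0.0156). Of the control mice all 5 were below 0 (mean −0.03). Of the *Tip60* cKO mice 3 were at exactly 0 (mean −0.0043), a difference between genotypes with an unadjusted exact permutation p = 0.0159. In these 3 mice both medians were the same value. Local background was at its genome-wide level for 41.4% and 47.5% of peaks in *Tip60* cKO, against 19.3% and 22.2% in control mice (long genes first). It came from 1 input library per genotype, so input and genotype cannot be told apart. This comparison is outside the 6 adjusted comparisons of genotypes given below. Against intergenic regions the score in long genes was lower by 4.54 ± 2.96, in 9 of 10 mice (exact sign-flip p = 0.00586, adjusted 0.00684).

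Along the bodies of long genes peaks became denser with distance from the 5′ end. In control mice the density was 37.3 ± 7.27 peaks per Mb at 10 to 50 kb, 42.9 ± 8.59 at 50 to 100 kb, 50.8 ± 10.6 at 100 to 200 kb, 58.0 ± 12.7 at 200 to 500 kb and 57.8 ± 12.1 beyond 500 kb (SD, n = 5). In *Tip60* cKO mice it was 32.4 ± 11.3, 38.0 ± 13.5, 44.2 ± 15.4, 47.8 ± 16.4 and 49.8 ± 16.2. In each of the 10 mice the first interval was the least dense and stood at 0.646 ± 0.0537 of the last (log2 ratio −0.63, exact sign-flip p = 0.00195, adjusted 0.00273). Without the 6 gene models that span other genes the log2 ratio was −0.43. The genotypes overlapped in all 5 intervals, with exact permutation p-values of 0.310 to 0.532 (adjusted 0.532).

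**Figure D3:**
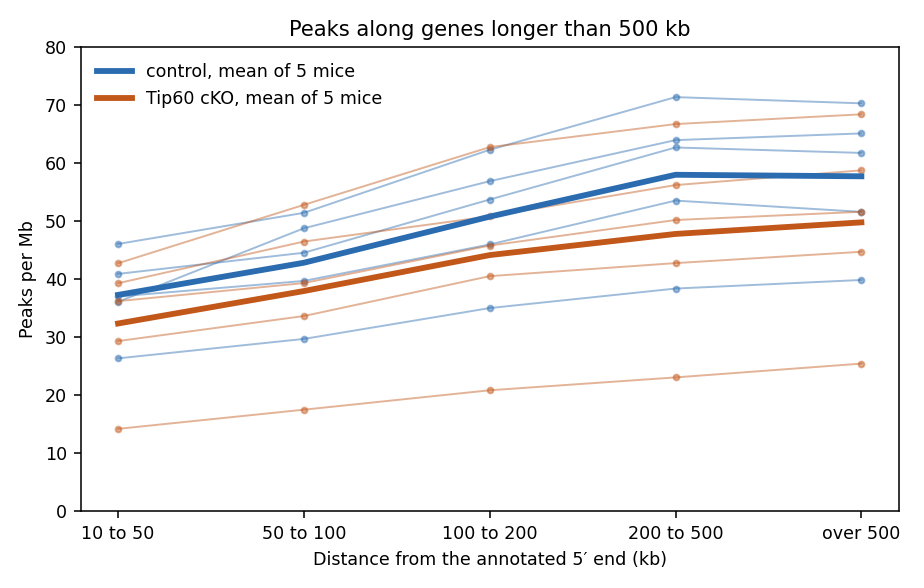
Peaks per Mb inside genes longer than 500 kb by distance from the annotated 5′ end in kb. Thin lines are the 10 mice and thick lines the means of 5 mice per genotype; every line is higher beyond 500 kb than at 10 to 50 kb.

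Genes differed in where their regions lay. Of 116 genes with at least 20 regions 71 held more of them in the distal part of the gene, beyond its midpoint, with a median share of 55.9%. This share exceeded 75% in 22 genes, among them *Mast4*, a kinase (93.2%), *Magi2*, a synaptic scaffold (88.5%), *Auts2*, a nuclear regulator of neurodevelopment (87.4%) and *Anks1b* (86.1%). In 12 genes over 75% lay before the midpoint. Here the distal share was 9.09% in *Lrp1b*, a lipoprotein receptor, 10.2% in *Pcdh9*, a protocadherin, 13.5% in *Grik2*, a kainate receptor, and 13.8% in *Grid1*. In *Celf2* it was 27.9%.

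Annotated internal transcript starts carried stronger acetylation than the rest of the gene body. Within 2 kb of such a start lay 1423 of the regions (10.1%), and 8.15% without the 6 gene models. A peak was present at 57.5% of these in control and 51.0% in *Tip60* cKO mice on average. Their score exceeded that of the other regions by 10.1, 9.77, 11.6, 10.8 and 8.07 in control and 10.8, 11.6, 9.43, 10.5 and 12.2 in *Tip60* cKO mice. The mean excess was 10.5 ± 1.21 (SD, n = 10), above 0 in 10 of 10 mice, with an exact sign-flip p = 0.00195 (adjusted 0.00273), and 7.73 without the 6 gene models. Of these regions 19.3% had a peak in all 10 lists, against 6.68% of the others.

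*Tip60* cKO and control mice were then compared to ask whether peaks inside long genes were fewer or ranked lower without TIP60. Rank scores and shares of peaks compare regions within a list, so a loss of H4K12ac shared by all regions can escape them. By immunofluorescence the paper reported a significantly lower H4K12ac signal in TIP60-deficient nuclei of CA1. Overlap between genotypes in the measures below therefore does not show that acetylation was unchanged. A peak was present at 52.9, 54.7, 46.0, 34.1 and 59.4% of the regions in control mice 1 to 5 and at 55.1, 42.5, 49.2, 37.9 and 21.5% in *Tip60* cKO mice 1 to 5. The means were 49.4% ± 9.82 and 41.2% ± 12.8 (SD, n = 5 mice each), and the groups overlapped, with *Tip60* cKO 5 lowest and control 4 next to it. The difference was smaller than the spread between mice (two-sided exact permutation p = 0.310, adjusted over 6 comparisons of genotypes 0.603). The difference of means was −2.28 points within lane 7 and −17.1 points within lane 8. Presence followed the length of the peak list, which is lowest in *Tip60* cKO 5 and control 4, and depth and genotype cannot be told apart by this measure.

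Other measures over all regions in long genes overlapped between genotypes as well. Mean rank scores were 34.7, 35.2, 30.9, 25.2 and 37.3 in control and 36.1, 30.2, 34.1, 27.4 and 17.6 in *Tip60* cKO mice (exact permutation p = 0.413, adjusted 0.603). Within lanes 7 and 8 the difference was −0.12 and −8.73. Peaks covered 2.23% ± 0.574 of the gene bodies in control and 1.72% ± 0.693 in *Tip60* cKO mice (exact permutation p = 0.238, adjusted 0.603). The share of all peaks of a list that lay in long genes was 8.35% ± 0.685 and 8.02% ± 0.951 (exact permutation p = 0.571, adjusted 0.603). Relative to genes of 100 to 500 kb the score was lower by 1.83 in control and by 2.03 in *Tip60* cKO mice (exact permutation p = 0.603, adjusted 0.603).

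Relative to intergenic regions the scores in long genes were −4.13, −5.03, −8.31, −8.55 and −6.01 in control and −0.18, −4.17, 0.60, −5.15 and −4.42 in *Tip60* cKO mice. The means were −6.41 ± 1.96 and −2.67 ± 2.66, with an exact permutation p = 0.0556 that became 0.333 after adjustment over the 6 comparisons. Within lanes 7 and 8 the difference was 4.57 and 2.49. The score of the intergenic regions themselves was 39.1 ± 3.43 in control and 31.8 ± 5.59 in *Tip60* cKO mice (unadjusted exact permutation p = 0.0238). The local background of the peaks, which MACS takes from the input of the same genotype, moved with genotype as well. For peaks in long genes it was a median of 1.16 ± 0.0122 times the genome-wide level in control and 1.04 ± 0.0107 times in *Tip60* cKO mice. It stood at the genome-wide level itself for 19.3% ± 1.97 of these peaks in control and 41.4% ± 4.24 in *Tip60* cKO mice. As the 5 mice of a genotype shared 1 input library, these are not 5 independent measures, and input and genotype cannot be told apart.

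**Figure D4:**
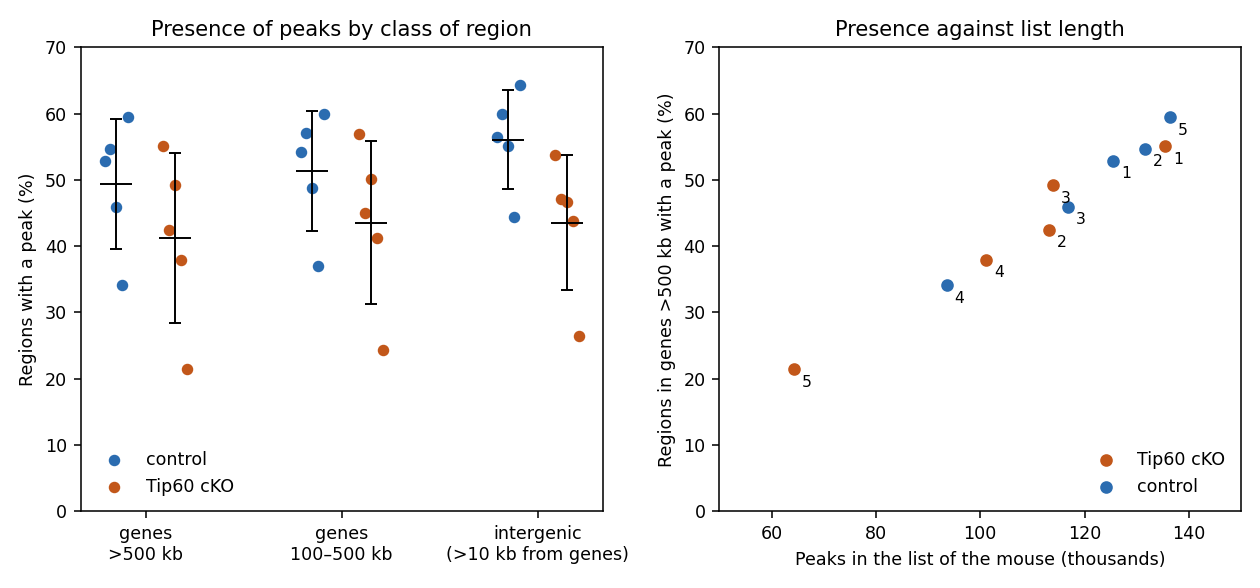
Left, percent of regions with a peak in each mouse for genes longer than 500 kb, genes of 100 to 500 kb and intergenic regions (points are mice, bars mean ± SD of 5 mice). Right, percent of regions in genes longer than 500 kb with a peak against the number of peaks in the list of the mouse, from *Tip60* cKO 5 (64245 peaks, 21.5%) to control 5 (136409 peaks, 59.4%).

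For single genes the scores of all regions of a gene were averaged in each mouse and compared with limma over 7031 genes. Lower in *Tip60* cKO were 28 (0.398%) and higher 7 (0.0996%) of all genes at a Benjamini-Hochberg adjusted p below 0.05, but 0 of 199 long genes. At an unadjusted p below 0.05, 26 long genes were lower (13.1%, against 11.8% of all genes) and 0 higher (2.87% of all genes). In the mean over mice 153 of 199 long genes (76.9%) had a lower score in *Tip60* cKO, against 62.2% of all genes, and the median difference was −5.39 against −3.42. Counted by region the order was the reverse, with a lower mean in 54.8% of regions in long genes against 56.9% of all regions and a median difference of −2.11 against −2.21. Neither share corrects for the unequal number of peaks per list. Long genes and other genes share the same libraries, so these shares are given without a test.

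The long genes with the smallest p were all lower. *Csmd3*, a transmembrane protein with complement-control domains, had scores of 31.4, 28.7, 24.996, 30.2 and 25.9 in control and 6.06, 0, 0, 15.7 and 0 in *Tip60* cKO mice over its 9 regions. These groups did not overlap, and the difference of −23.87 had a limma adjusted p of 0.0641. *Ptprk*, a receptor tyrosine phosphatase, had 42.6, 45.3, 47.7, 32.8 and 45.8 in control and 26.5, 22.4, 19.5, 23.8 and 15.05 in *Tip60* cKO mice over 28 regions (difference −21.38, limma adjusted p = 0.0882). Here too each control mouse lay above each *Tip60* cKO mouse.

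*Dpyd*, the first enzyme of pyrimidine breakdown, had 58.9, 42.3, 65.7, 58.0 and 36.0 in control and 22.4, 30.3, 28.97, 13.8 and 7.97 in *Tip60* cKO mice over 9 regions (difference −31.49, limma adjusted p = 0.0920). *Lingo2*, a leucine-rich repeat membrane protein, had 25.3, 31.7, 27.5, 40.2 and 35.3 in control and 9.24, 4.34, 2.05, 17.2 and 15.5 in *Tip60* cKO mice over 25 regions (difference −22.34, limma adjusted p = 0.0928). *Smyd3*, a lysine methyltransferase, had 24.7, 38.4, 38.9, 38.6 and 40.3 in control and 16.6, 19.8, 20.6, 16.6 and 3.55 in *Tip60* cKO mice over 20 regions (difference −20.72, limma adjusted p = 0.121). The genotypes did not overlap in any of these genes, which were picked for their small p and did not pass the test.

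In the opposite direction the 5 smallest p-values belonged to *Sorcs1* and *Cntnap5c* with 1 region each, *Rbms3* with 4, *Fat3* with 7 and *Tenm4* with 150 regions. For *Tenm4*, a teneurin of the cell surface, the scores were 29.5, 25.9, 21.97, 14.2 and 25.1 in control and 47.5, 31.1, 34.8, 25.6 and 20.8 in *Tip60* cKO mice. These overlapped (difference 8.64, limma adjusted p = 0.510).

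The 15 genes with the most regions, which include the gene models *Gm20388*, *Fgfr2* and *Gm37240* that span other genes, did not pass the test either, with adjusted limma p-values of 0.641 to 0.992. In *Kalrn* the scores were 39.7, 36.2, 31.9, 21.2 and 38.2 in control and 45.1, 35.9, 43.2, 33.3 and 17.0 in *Tip60* cKO mice (difference 1.45). In *Slit3* peaks covered 20.01% ± 4.83 of the gene in control and 13.9% ± 5.75 in *Tip60* cKO mice, with ranges of 12.7 to 24.7% and 5.44 to 19.97%. Coverage in *St6galnac3* was 27.4% ± 5.82 and 21.99% ± 7.90, in *Celf2* 11.3% ± 3.50 and 8.45% ± 4.31, in *Dab1* 7.78% ± 2.41 and 5.72% ± 2.75, and in *Tenm2* 6.79% (3.67 to 8.46%) and 6.04% (1.89 to 9.04%). In *Magi2* the score was higher by 4.49 in *Tip60* cKO. Ranges overlapped in each of these genes.

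Of single regions in long genes 57 (0.405%) were lower and 14 (0.0994%) higher in *Tip60* cKO by limma on the rank scores of all 144701 regions at an adjusted p below 0.05. Over all regions 0.475% (687) were lower and 0.0864% (125) higher, so long genes were near the background in both directions. With 64245 peaks in each list 16 (0.114%, against 0.180% of all regions) and 7 (0.0497% against 0.0613%) were called. Among them were 4 of the 57 and 3 of the 14. Without *Tip60* cKO 5 there were 52 higher (0.369%, against 0.290% of all regions). Without control 4 there were 125 lower (0.887% against 0.873%). In genes of 100 to 500 kb 0.482% were lower, and among intergenic regions 0.693%. At an unadjusted p below 0.05, 1192 regions in long genes were lower (8.46%, against 8.34% of all regions) and 576 higher (4.09% against 3.68%). The 57 and 14 regions lay in 42 and 13 host genes, 6 and 1 of them within 2 kb of a transcript start and 5 and 1 over an exon. Of all regions in long genes 10.1% lay within 2 kb of a start and 6.59% over an exon of the host. *Celf2* and *Tenm2* held 3 of the lower regions each. None of the 71 had a peak in all 10 lists, and genome-wide 8 of the called regions had one. Of the 57, 47 had a peak in all control and no *Tip60* cKO lists, as 4 of the 14 had in reverse. Over all regions this held for 538 of the 687 lower and 56 of the 125 higher. By the difference in presence alone, 330 regions (2.34%) had a peak in at least 4 more control than *Tip60* cKO lists, against 2.27% of all regions. Conversely 74 (0.525%) had a peak in at least 4 more *Tip60* cKO lists, against 0.498%.

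The 8 lower regions with the smallest p were intronic, and all had a peak in 5 of 5 control and 0 of 5 *Tip60* cKO lists. In *Clstn2*, a calsyntenin of the postsynapse (chr9:97673241-97674036), the fold enrichment was 3.59, 4.57, 4.46, 5.03 and 4.996 in control mice (difference in score −83.81, SE 5.89, limma adjusted p = 0.000257). In *Fars2*, a mitochondrial phenylalanine-tRNA synthetase (chr13:36264914-36265700), it was 4.60, 3.83, 4.98, 3.43 and 4.47. In *Cacna2d3*, an auxiliary calcium channel subunit (chr14:29025409-29026181, also inside *Lrtm1*), it was 4.02, 3.45, 3.86, 3.57 and 3.38. The median over all peaks in long genes was 3.45 ± 0.110 in control mice (SD over 5 medians), close to the values in *Cacna2d3* and below most of those in *Clstn2* and *Fars2*.

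In *Zbtb20*, a zinc finger repressor needed for hippocampal pyramidal cell identity (chr16:43190891-43192109), the control values were 3.49, 4.72, 3.63, 3.99 and 3.61. In *Lingo2* (chr4:36434504-36435231) they were 3.36, 3.66, 3.53, 2.55 and 3.61, and in *Nckap5* (chr1:126431236-126432030) 3.49, 4.06, 3.53, 3.22 and 4.37. In *Tenm2* (chr11:36821006-36821713) they ranged from 2.85 to 4.02 and in *Celf2* (chr2:7360677-7361392) from 2.87 to 3.95. The adjusted limma p of these 8 regions was 0.000257 to 0.000354.

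Of the higher regions the one with the smallest p was in *Dlgap1*, a scaffold of the postsynaptic density (chr17:70255313-70255693). Its fold enrichment was 3.49, 5.07, 3.51, 3.36 and 4.497 in *Tip60* cKO mice, with no peak in control mice (difference in score 76.79, SE 6.96, limma adjusted p = 0.000505). In *Kcnma1*, the pore of the BK potassium channel, a region at an internal start and exon (chr14:23803256-23804158) had 2.67, 3.53, 3.51, 3.36 and 3.60 in *Tip60* cKO mice and no peak in control mice (limma adjusted p = 0.00110). In *Ank3* (chr10:69890098-69891162) the values were 2.88, 3.12, 4.56, 3.13 and 4.13, again against no control peak (limma adjusted p = 0.00246). A further *Dlgap1* region (chr17:70557663-70558645) had 3.99, 3.87, 5.32, 3.91 and 3.83 and a peak of 2.34 in control 1. The other 4 of the 8 lay in *Cadm2*, *Magi2*, *Gm37240* and *Gm20388*, with adjusted limma p-values of 0.00504 to 0.0171.

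None of the 57 and none of the 14 regions passed when limma used a prior variance that was both robust and dependent on the mean score. That prior called 10 other regions lower (0.0710%, against 0.139% of all regions) and 3 higher (0.0213% against 0.0802%). With the replicate number as a block 15 (0.106% against 0.160%) and 1 (0.00710% against 0.0200%) passed. The peaks behind the calls stood on a lower background than the average: 1.09 ± 0.0190 times the genome-wide level at the lower regions in control mice, against 1.16 over all regions in long genes, and 1.007 ± 0.00769 against 1.04 at the higher regions in *Tip60* cKO mice. The part of the input in these calls was not tested.

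**Figure D5:**
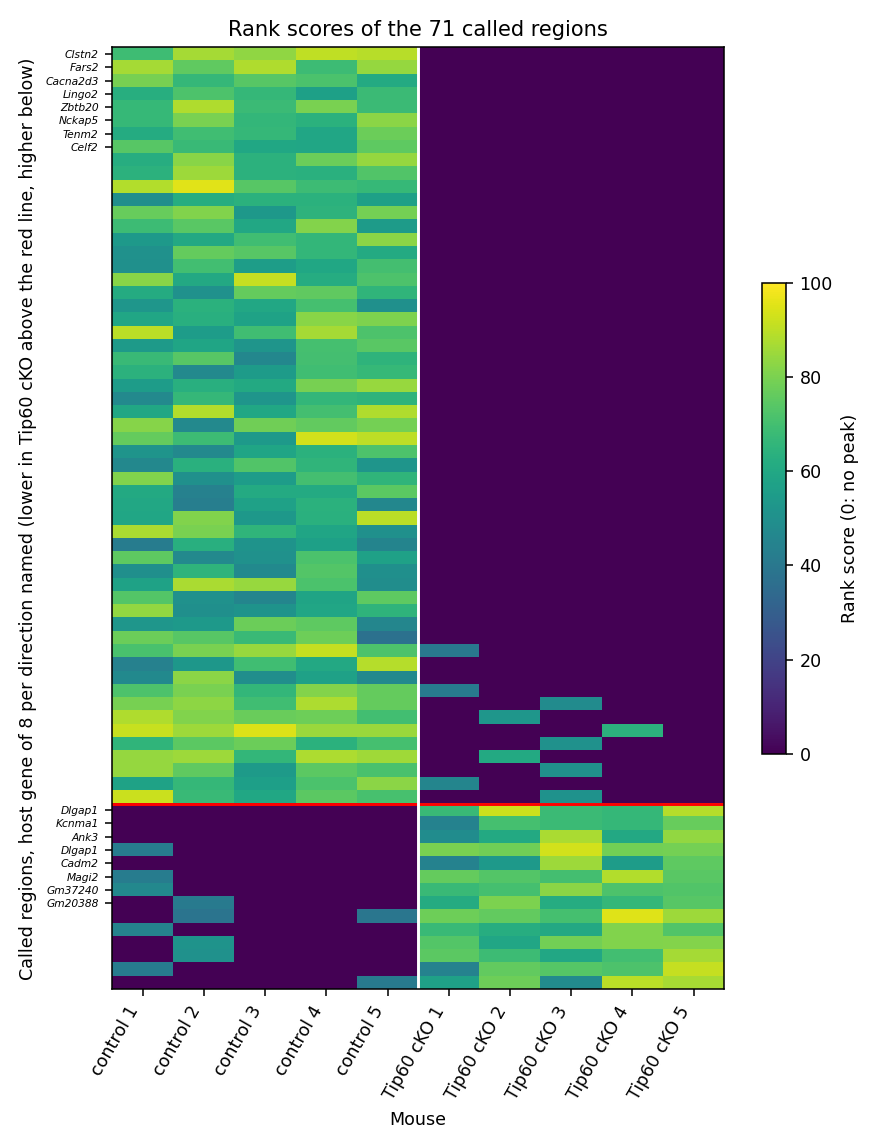
Rank scores (colour, 0 without a peak) of the 71 regions in genes longer than 500 kb that passed limma, by region (vertical axis, with the host gene of the 8 of smallest p in each direction) and mouse (horizontal axis), 57 lower in *Tip60* cKO above the red line and 14 higher below it. Most rows are without a peak in all 5 mice of a genotype, and 47 of the 57 lower regions have no *Tip60* cKO peak.

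The same lists overlap: *Dlg2* is on the scaffold and fragile site lists, and *Ctnna3* on the adhesion and fragile site lists. The 2 lower regions of *Dlg2* thus count in both of its lists. By list, regions called lower were 9 of 2027 in scaffold and other synaptic genes (0.444%), 7 of 1162 in nuclear regulators (0.602%) and 7 of 1043 at fragile sites (0.671%). There were 6 of 1809 in adhesion genes (0.332%) and 4 of 1189 in ion channel genes (0.336%). Receptor phosphatases, kinases and guidance genes had 3 of 968 (0.310%), cyclic nucleotide and lipid signalling 1 of 180 (0.556%) and glutamate and GABA receptors 0 of 279. These shares lie around the 0.475% of all regions. Regions called higher were 3 in the scaffold list, which does not hold *Dlgap1* with its 2 higher regions, 2 each in ion channel and nuclear regulator genes and 1 in an adhesion gene, and 0 in the other 4 groups. Their shares were 0.148%, 0.168%, 0.172%, 0.0553% and 0, around the 0.0864% of all regions.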

How the data were processed

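H4K12ac ChIP-Seq peak lists of 5 *Tip60* cKO and 5 control mice were used. The authors aligned reads to mm10 with STAR and cleared duplicates with samtools rmdup. MACS 2.1.0.20140616 then called peaks in every library at q below 0.1, with the input of that genotype as control. The lists hold 4 deposited values per peak. Pileup is a deposited coverage signal, counted in fragments where the peak is highest. Fold enrichment is a deposited ratio of pileup to local background (1 added to each). Significance is deposited as −log10 of the p-value and of the q-value.

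Peaks that overlap or adjoin were merged into 257154 regions, of which 144701 had a peak in at least 2 lists. Genes and transcript starts came from GENCODE M21 on GRCm38. Scores entered limma 3.58.1 (R 4.3.3; lmFit, eBayes) over all regions or all genes with a region, with Benjamini-Hochberg adjusted p below 0.05. Values per mouse were compared by two-sided exact permutation of 5 against 5 mice (252 assignments, smallest p 0.00794) and, within mice, by exact sign-flip tests over 10 mice (Python 3.11.15, numpy 2.4.6, pandas 2.3.3, scipy 1.17.1). On simulated scores without any change, limma with its constant prior called some regions and fewer with a mean-dependent robust prior. Region calls may therefore hold more false calls than their adjusted p states. The simulation gave every mouse the same chance of a peak at a region, so it did not cover unequal list lengths or inputs.

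Named were the 15 genes with the most regions, the 5 genes with the smallest p and the 8 called regions with the smallest p in each direction, the 5 strongest regions away from transcript starts and the longest region. Other genes named for density, position or lack of regions were chosen after their values were seen. The regions, gene lists and tests were chosen with earlier results of these data known.

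The lists hold no counts per region, so no counting error is given, and precision comes from the spread between mice. Depth was 22864189 to 37923809 tags per library, and regions lacking a peak did not reach the threshold at that depth. Alternatives were peaks with q below 0.01, the strongest 64245 peaks of each list, ranking by pileup, regions in at least 5 lists, hosts over 300 or 1000 kb, no regions near transcript starts, peaks that cover a fraction of at least 0.5 of the region, omission of each mouse, a block for the replicate number, lanes, another prior and presence alone. Leaving out the 6 gene models that span at least 5 other genes was added after seeing the data. Reads were not used here, and the authors' differential binding was not repeated.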

Additional observations from a re-analysis of the deposited data

Results flagged for a closer look

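Of 154 groups of 5 mice 9 had a mouse whose gap to its nearest neighbour exceeded the 95% critical value of Dixon's test, and chance flags about 1 in 20. *Tip60* cKO 5, the library with the fewest tags and peaks, stood apart in 3 of them. Its intergenic rank score was 22.04 (others 32.6 to 36.2), its median fold enrichment in genes of 100 to 500 kb was 3.90 (3.46 to 3.58), and its *Smyd3* score was 3.55 (16.6 to 20.6).

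In *Tip60* cKO 1 the log2 ratio of fold enrichment in long genes to that in genes of 100 to 500 kb was −0.0186, against −0.0028 to 0 in the others. In *Tip60* cKO 3 the *Dlgap1* region chr17:70557663-70558645 scored 93.1 (others 78.4 to 79.8). Among control mice, control 1 had a *Smyd3* score of 24.7 (38.4 to 40.3), control 3 a score of 97.4 at the *Ptprn2* region (99.4 to 99.99), control 4 a *Gm37240* score of 37.4 (44.2 to 46.6), and control 2 had 42.3% of intergenic peaks at the genome-wide background (34.4 to 35.8%).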

How the results depend on the processing

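Mean presence, mean score and covered share kept a lower mean in *Tip60* cKO and no p below 0.05 under all alternatives run. Some of these could not reach 0.05: the replicate block (smallest sign-flip p 0.0625), lane 7 alone (smallest exact permutation p 0.1) and lane 8 alone with fewer mice. The differences in presence, score and covered share (−8.20 points, −3.56 and −0.513 points) shrank to −0.998, −0.40 and −0.215 with 64245 peaks per list. Without *Tip60* cKO 5 they shrank to −3.26, −0.70 and −0.263, and without control 4 they were −12.02, −5.42 and −0.728. The difference in the share of peaks (−0.334 points) became 0.0190 with 64245 peaks per list and 0.184 within lane 7, and without single mice it ranged from −0.573 to 0.0144 (without *Tip60* cKO 5). The score against genes of 100 to 500 kb (−0.20) became 0.18 with a covered fraction of 0.5 and 0.26 within lane 7. Against intergenic regions the difference (3.74) passed 0.05 unadjusted with q below 0.01 (3.77), with 64245 peaks (3.01), with hosts over 300 kb (3.58), with a covered fraction of 0.5 (4.86), and without control 1 (4.31) or *Tip60* cKO 4 (4.36), within a range of 2.92 to 4.36 without single mice.

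Between classes, the ratio of peak lengths became 0.0215 for hosts over 1000 kb, and that of fold enrichment (−0.0156) no longer passed there (−0.0044). Lane 8 with 4 mice cannot reach 0.05, and there length (−0.0501), fold enrichment (−0.0116), peaks per Mb (−0.683), density by distance (−0.664) and internal starts (10.4) kept their direction. Within lane 7 fold enrichment was −0.0182 (exact p = 0.0625).

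Lower and higher regions (57 and 14) numbered 16 and 7 with 64245 peaks, 106 and 53 of 5525 in at least 5 lists, 24 and 5 for hosts over 1000 kb, 130 and 27 over 300 kb, 36 and 4 with a covered fraction of 0.5, 330 and 74 by presence, and 10 and 3 with the mean-dependent robust prior. Of the 57 and 14 themselves 4 and 3 were called with 64245 peaks, 10 and 2 with a covered fraction of 0.5, and 0 with the robust prior. Lower shares stood at 0.114% against 0.180% of all regions with 64245 peaks, 1.92% against 1.52% in at least 5 lists (higher 0.959% against 0.759%) and 0.256% against 0.397% with a covered fraction of 0.5, so their side of the background changed with the setting. For hosts over 1000 and 300 kb lower shares were 0.458% and 0.488%, against 0.475% of all regions. Ranking by pileup left 5 higher (0.0355% against 0.0422%). Leaving out a mouse gave 60 to 125 lower and 12 to 52 higher regions. The 52 came without *Tip60* cKO 5 (0.369%, against 0.290% of all regions), the 125 without control 4 (0.887% against 0.873%). The replicate block gave 15 and 1. Same-numbered mice had correlations of −0.010 to 0.023 in their deviations from the group means, and other pairs of mice −0.025 to 0.025. With all values this close to 0, whether the numbers pair the mice cannot be told. The numbers do follow the lane in the names of the lists.

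No long gene passed, except 3 (*Csmd3*, *Lrba*, *Pard3b*) with regions in at least 5 lists. *Csmd3* and *Pard3b* rest there on 1 region each, with a peak in 5 control and 0 *Tip60* cKO lists. These regions thus met that filter through control peaks alone. *Plcl1* passed when the limit for hosts was lowered to 300 kb. The causes of these changes were not tested. The share of all genes called in these settings is not given, so these counts cannot be set against a background. Over all regions the share called lower was 1.52% with at least 5 lists, against 0.475% in the main setting. Of 532 values for 25 named genes 33 changed sign, all of uncalled differences. With 64245 peaks these were *Tenm2* 2.27, *Dlg2* 1.81, *Cacna1c* 3.19, *Anks1b* 1.86 and *St6galnac3* 0.64, and with at least 5 lists *Tenm2* 1.008, *Dlg2* 0.028, *Cacna1c* 4.49, *Anks1b* 2.32, *St6galnac3* 1.30 and *Fat3* −5.61. By pileup *Kalrn* was −0.36. Without single mice the differences ranged from −4.34 to 0.25 in *Gm20388*, −2.84 to 3.49 in *Tenm2*, −1.62 to 5.91 in *Kalrn*, −4.18 to 1.87 in *Dlg2*, −3.08 to 2.62 in *Cacna1c*, −3.37 to 3.49 in *Anks1b* and −4.88 to 0.62 in *St6galnac3*. Of 337 values for the 16 called regions 279 still passed, 58 did not and 0 changed sign.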

Other observations

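Among the regions in long genes 2236 (15.9%) had peaks in control lists only and 1318 (9.36%) in *Tip60* cKO lists only, against 13.8% and 7.56% of all regions, most of them in few lists and none of these counts corrected for the shorter lists of *Tip60* cKO mice. The windows of the 57 lower regions had a GC content of 46.3% ± 4.98 and those of the 14 higher regions 48.5% ± 3.24 (SD over regions), against 48.6% over all regions in long genes. The E-box letters CAGATG were found in 19 of 57 lower windows (33.3%) and 3 of 14 higher windows (21.4%). Their share was 27.3% over all regions in long genes and 25.6% over all regions. A CpG ratio above 0.6 was found in 0 of both, against 2.04% of all regions in long genes.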
